A study of Mus musculus with 42 samples.

Results

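The genes described here are the mouse WNT ligands, their receptors, the secreted inhibitors, the R-spondin module and the intracellular feedback genes of the pathway. They were chosen by gene symbol alone, which gave 55 genes of 53465 in the table. They comprise 19 ligands, 12 Frizzled and LRP receptors, 11 secreted inhibitors with the Kremen receptors, 9 genes of the R-spondin module and 4 intracellular feedback genes. The RNA came from mouse thymic epithelial cells (TEC), which support and select developing T cells, in a series where Ski was deleted in TEC; Ski encodes a corepressor of SMAD proteins. Cortical TEC (cTEC) were sorted as Epcam+CD45-UEA-Ly51+ cells. Medullary TEC (mTEC) were sorted as Epcam+CD45-UEA+Ly51lo cells with low or high MHC class II, here called MHCII-low and MHCII-high mTEC. The labels give 3 genotypes, Control, KO and Ski flox Control. They do not give the Cre driver of the KO, the strain, the age or the sex, nor whether Control or Ski flox Control animals carry a Cre. Each library was made from 200 cells. No label says which animal a library came from, so the tests rest on library-to-library spread, part of which may be technical. Replicate numbers used here follow the order of library numbers within each group. The same replicate number in different subsets is not known to mark the same animal. Of 42 libraries, 40 were used, with 5 Control, 7 KO and 2 Ski flox Control libraries in cTEC and 4, 7 and 2 in each mTEC subset. They held 3217251 to 7068077 counts.

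In canonical WNT signalling a secreted WNT protein binds a Frizzled receptor together with LRP5 or LRP6, which spares beta-catenin from degradation and lets it act with TCF/LEF factors on target genes. Several targets feed back on the pathway: Axin2 rebuilds the complex that degrades beta-catenin, Nkd1 and Nkd2 act on Dishevelled, and Rnf43 and Znrf3 remove Frizzled receptors from the cell surface unless R-spondins bind them through Lgr4, Lgr5 or Lgr6. SFRP proteins and Wif1 bind WNT proteins outside the cell, and DKK proteins such as Dkk1 block LRP5 and LRP6 with Kremen1 or Kremen2 as partners. In the thymus, WNT proteins from epithelium and thymocytes, Wnt4 among them, have been linked to Foxn1, the transcription factor that TEC need.

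Promoter windows are shown for Nkd2 and Wnt10b, the members that differed between both mTEC subsets and cTEC in KO, and for Axin2, the usual reporter gene of the pathway. Each window is the 250 bases before the annotated start, on the gene's strand, from RefSeq on GRCm38.p6. The Nkd2 window is chr13:73847632-73847881 on the minus strand, the Wnt10b window chr15:98778151-98778400 on the minus strand and the Axin2 window chr11:108920099-108920348 on the plus strand. Capitals mark a match to CAGACA, a SMAD-binding element, which here lies on the opposite strand. Only this form was searched, so CAGAC followed by another base, as in the Axin2 window, stays in lower case.
Nkd2: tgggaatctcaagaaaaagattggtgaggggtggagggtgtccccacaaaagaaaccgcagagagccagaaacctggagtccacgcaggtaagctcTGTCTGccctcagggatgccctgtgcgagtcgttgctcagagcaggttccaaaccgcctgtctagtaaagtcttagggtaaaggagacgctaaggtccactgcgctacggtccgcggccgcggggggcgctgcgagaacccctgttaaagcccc
Wnt10b: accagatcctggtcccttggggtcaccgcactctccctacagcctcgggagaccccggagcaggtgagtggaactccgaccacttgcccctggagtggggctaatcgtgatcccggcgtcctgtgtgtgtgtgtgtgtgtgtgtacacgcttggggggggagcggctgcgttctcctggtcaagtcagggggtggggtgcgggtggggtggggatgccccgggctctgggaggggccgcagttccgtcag
Axin2: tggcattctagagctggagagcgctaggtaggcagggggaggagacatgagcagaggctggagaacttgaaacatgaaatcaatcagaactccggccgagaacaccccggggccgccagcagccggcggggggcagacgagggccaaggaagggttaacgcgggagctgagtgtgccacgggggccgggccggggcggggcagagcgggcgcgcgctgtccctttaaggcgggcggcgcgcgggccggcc
The windows were searched on both strands for CAGACA and for the TCF/LEF core motif, which was taken as CTTTGAA, as the form CTTTGAT, as the form CTTTGTA or as the form CTTTGTT. Of the 55 members, 35 matched the RefSeq table, with 39 windows. The SMAD element was found in 4 of these windows (10.3%; Kremen2, Nkd2, Sfrp2 and Wnt7a), against 17.1% of all 32851 windows. The TCF/LEF core was also found in 4 windows (10.3%; Dkk1, Fzd7, Wnt11 and Wnt5b), against 14.8% of all windows. No member window held both. A match describes letters only.

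The pathway genes with the highest levels in Control were the scaffold gene Axin1, the ligands Wnt4 and Wnt10a and the WNT-binding inhibitors Sfrp1 and Sfrp5. Levels are CPM, the counts scaled to TMM-adjusted library sizes, and between genes they are compared per kb of exon, as the mean of the 3 Control groups. Among ligands, Wnt4 stood at 9.70 and Wnt10a at 9.54 CPM per kb, above Wnt11 at 3.55, Wnt5b at 2.59 and Wnt6 at 2.32. The other 14 ligands lay at 2.02 CPM per kb or lower. Leaving out 1 Control library, an alternative chosen after seeing the data, moved Wnt5b to 1.52 (cTEC replicate 3) and Wnt6 to 1.47 (MHCII-high replicate 1), so their places rest on those libraries. Among receptors, Fzd6 stood at 3.84, the co-receptor Lrp6 at 3.36 and Fzd7 at 1.85, and the other 9 ranged from 0.126 to 1.58. Among inhibitors, Sfrp1 stood at 9.69, Sfrp5 at 7.35, Kremen2 at 3.48 and Kremen1 at 2.84, and the other 7 were at 1.80 or below. Lgr4, at 2.63, and the ubiquitin ligase gene Rnf43, at 2.13, led the R-spondin module, followed by Rspo1 at 1.17, or 0.709 without cTEC Control replicate 1. In the intracellular group Axin1 stood at 10.9, Nkd2 at 2.97, Nkd1 at 1.18 and Axin2 at 0.610 CPM per kb.

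Most members were found in part of the libraries only. Every member had a count in at least 1 library, but 31 of 55 had a median of 0 CPM over the 40 libraries. Lrp6 and Sfrp1 were counted in all 40, Axin1 and Wnt4 in 39 and Kremen1 in 38. At the other end, Wnt3a, Wnt16 and Wnt8a were counted in 1 library each, and Wif1 did not pass 0.783 CPM nor Dkk4 2.02 CPM in any. These 5 genes fell under the count filter, which left 50 members to test. Of those, 6 had more than 50% of their summed CPM in a single library: Sfrp2, Rspo3, Rspo4, Rspo2, Fzd9 and Wnt1. From 200 cells a gene used by few of them can be missed in a whole library, and fewer cells of a type and less RNA per cell cannot be told apart in such samples.

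**Figure D1:**
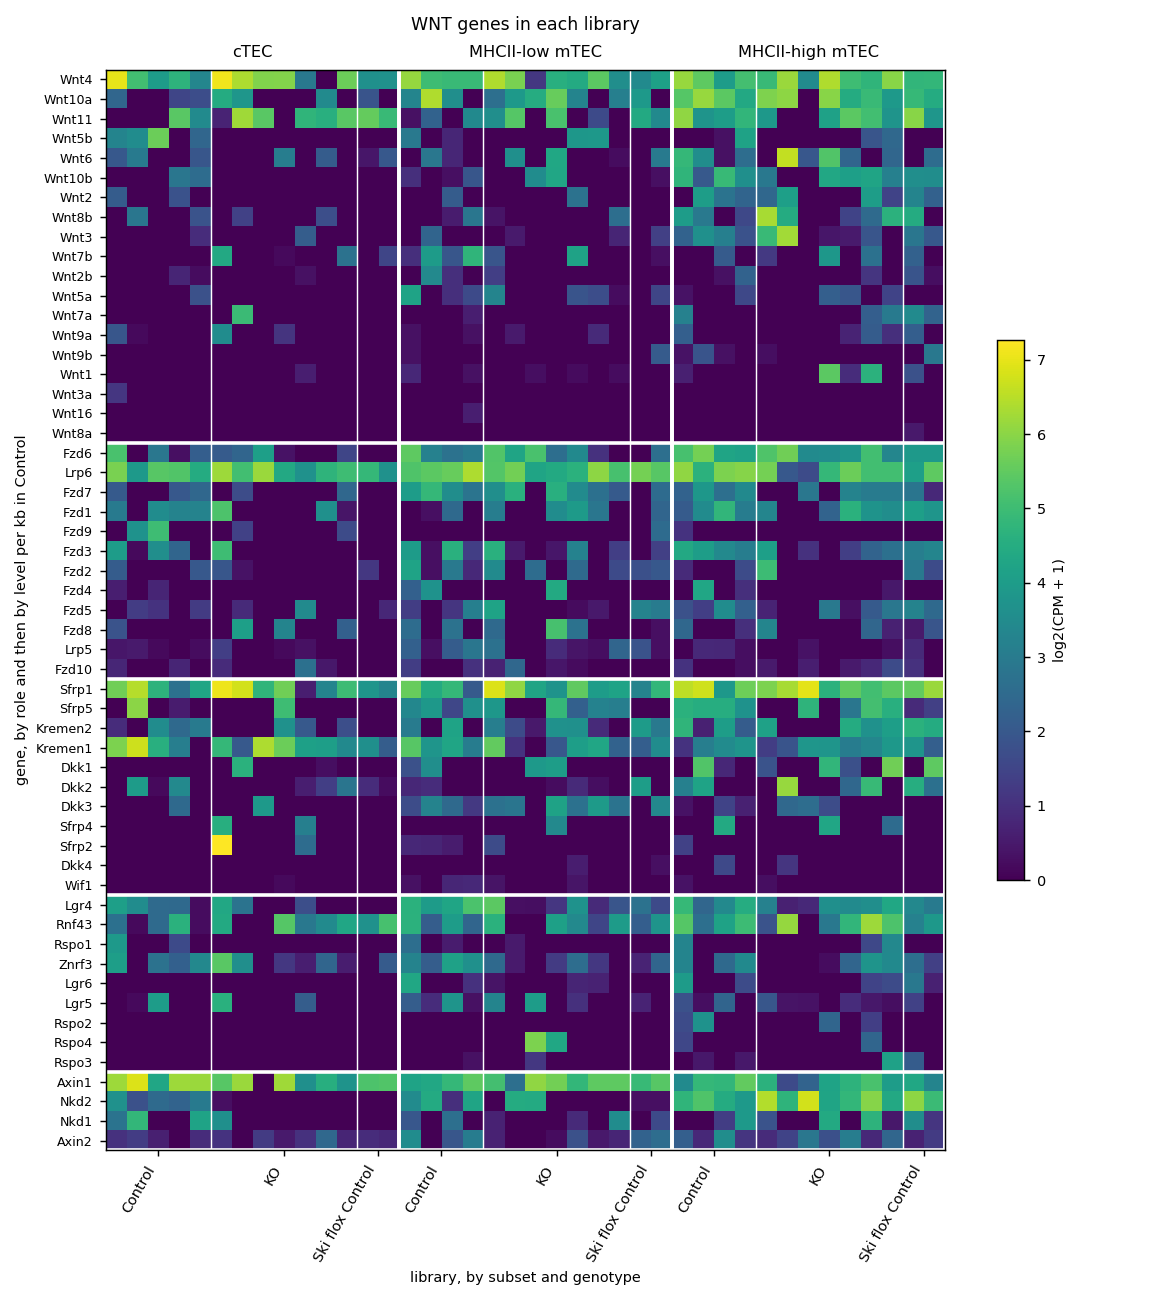
Level of each of the 55 genes (rows, by role and then by level per kb in Control) in each of the 40 libraries (columns, by subset and genotype), as log2(CPM + 1), with thick lines between subsets and between roles. Wnt4, Lrp6, Sfrp1, Axin1 and Kremen1 are present nearly throughout, most other genes are dark in many libraries, and Nkd2 is dark in the KO libraries of cTEC and bright in those of MHCII-high mTEC.

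The number of members counted per library moved with subset and genotype. In cTEC it was 21 to 28 (median 24) in Control, 8 to 24 (median 17) in KO, and 12 and 13 in Ski flox Control. In MHCII-low mTEC it was 28 to 39 in Control and 16 to 33 in KO, and in MHCII-high mTEC 31 to 41 in Control and 17 to 38 in KO. The number of all genes counted moved with it: in cTEC the median was 16263 genes in Control and 13620 in KO, and in MHCII-high mTEC 19493 and 16882. The part of this in the differences below was not tested. The library cTEC KO replicate 1 stands apart among the members: it held the highest value of 9 of them, Fzd1, Fzd3, Lgr5, Sfrp1, Sfrp2, Sfrp4, Wnt4, Wnt9a and Znrf3. Its 10 fibroblast markers summed to 6430 CPM, against 12 to 236 CPM in the other 6 cTEC KO libraries and 0.413 to 2619 CPM in cTEC Control.

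In most libraries the cell markers followed the sort labels. The summed cTEC markers had a median of 4955 CPM in cTEC Control and 9986 in cTEC KO, against 987 to 1809 in the Control and KO groups of mTEC, and cTEC KO ran down to 577 CPM in 1 library. The summed mTEC markers had a median of 310 CPM in cTEC Control, 1156 in MHCII-low and 2058 in MHCII-high Control. In MHCII-low mTEC of KO they summed to 335 and 452 CPM in replicates 6 and 7, within the 149 to 461 CPM of the Control and KO libraries of cTEC, and to 1094 to 2233 CPM in the other 5. The MHCII-low libraries of Ski flox Control held 463 and 554 CPM. Thymic tuft markers were highest in MHCII-low Control (median 6289 CPM). Thymocyte, myeloid and B cell markers were counted in every group, and their part in the levels here was not tested. Ski itself averaged 16.8 ± 8.97 CPM (SD, n = 5) in cTEC Control and 16.4 ± 16.4 (n = 7) in the cTEC libraries labelled KO, and 24.7 ± 15.2 (n = 4) and 6.52 ± 5.95 (n = 7) in MHCII-low mTEC. Counts per gene do not show which exons a deletion removes, and directions drawn from KO rest on that label.

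How the pathway differs between medulla and cortex was asked within each genotype. In Control, no member passed edgeR's quasi-likelihood test at an adjusted p of 0.05. In KO, Nkd2, an inhibitor that acts on Dishevelled, was higher in both mTEC subsets than in cTEC, and so was the ligand Wnt10b. The ligands Wnt1, Wnt2 and Wnt5a and the agonist Rspo3 were higher, and the inhibitor Sfrp2 lower, in MHCII-high mTEC than in cTEC of KO. The count filter asks for about 10 counts in as few as 2 libraries. Sfrp2 reached 10 counts only in cTEC replicates 1 and 5 of KO (703 and 19). Rspo3 did so only in MHCII-high replicate 7 of KO (87) and Ski flox Control replicate 1 (16), and Wnt1 only in MHCII-high libraries. Sfrp2, Rspo3 and Wnt1 thus entered the test only because of libraries where they are high, so their calls are no independent support. For MHCII-low mTEC over cTEC in Control 0 of 50 members were called (6 at an unadjusted p under 0.05), against 0.703% of all 23040 genes higher and 0.0694% lower. For MHCII-high mTEC over cTEC in Control it was also 0 (9 unadjusted), against 1.07% higher and 0.0434% lower. Of all genes, 17.9% and 21.2% had an unadjusted p under 0.05 in these comparisons of Control, in that order. In KO, MHCII-low mTEC over cTEC gave 2 members higher and 0 lower, against 5.19% and 0.49% of all genes. MHCII-high mTEC over cTEC in KO gave 6 higher and 1 lower, against 12.9% and 1.82%, so the members' count is near the background. The median member log2 fold change in that comparison was 1.42, and that of all genes 0.28. In Control it was 1.63 against 0.25, and for MHCII-low mTEC 0.74 against 0.14 in Control and 0.27 against 0.25 in KO.

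Nkd2 (ENSMUSG00000021567, chromosome 13, 73818534 to 73847631, minus strand) showed the clearest division between subsets. In cTEC of Control it stood at 11.8, 2.49, 4.68, 3.94 and 6.91 CPM. In the 7 cTEC libraries of KO it stood at 0.218 CPM in replicate 1, a single count, and at 0 in the other 6. In MHCII-high mTEC of KO it ran from 17.8 to 108 CPM with a median of 27.3, so that the groups of KO do not overlap. In Control, MHCII-high mTEC stood at 26.0, 37.2, 21 and 13.9 CPM, also above all cTEC libraries. How many of all genes have groups that do not overlap was not computed, for Nkd2 or for the genes below. In MHCII-low mTEC, Control stood at 10.3, 20.8, 0.956 and 18 CPM, while KO stood at 21.4 and 20.6 in replicates 2 and 3 and at 0 in the other 5. MHCII-low mTEC of KO thus falls into libraries with and without Nkd2 and overlaps cTEC. Of the 5 without it, replicates 6 and 7 are those with the low mTEC marker sums, while replicates 1, 4 and 5 held 1876, 1895 and 1094 CPM of these markers. The part of the markers in the Nkd2 level was not tested.

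The log2 fold change of Nkd2 over cTEC in KO was 9.79 (SE 1.61, edgeR adjusted p = 0.000376) in MHCII-high and 6.76 (SE 1.45, adjusted p = 0.00729) in MHCII-low mTEC. As group totals over library sizes, MHCII-high mTEC exceeded cTEC 1627-fold, with a 95% counting interval of 292 to 64297, since cTEC held 1 count and MHCII-high mTEC 1522. Leaving out any 1 of the 14 libraries kept both calls, with adjusted p-values from 0.000459 to 0.00148 in MHCII-high and from 0.00316 to 0.0197 in MHCII-low mTEC. With limma voom the MHCII-low call was lost (log2 fold change 1.90, adjusted p = 0.270). In a fit of only those groups, Nkd2 fell under the count filter for MHCII-low mTEC and was not tested, and for MHCII-high mTEC it was called (edgeR adjusted p = 0.000113). In Control the log2 fold changes over cTEC were 2.04 (SE 1.35, edgeR adjusted p = 0.436) in MHCII-high and 1.07 (SE 1.33, adjusted p = 0.822) in MHCII-low mTEC. Within KO, MHCII-high over MHCII-low mTEC gave 3.03 (SE 1.15, edgeR adjusted p = 0.167).

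**Figure D2:**
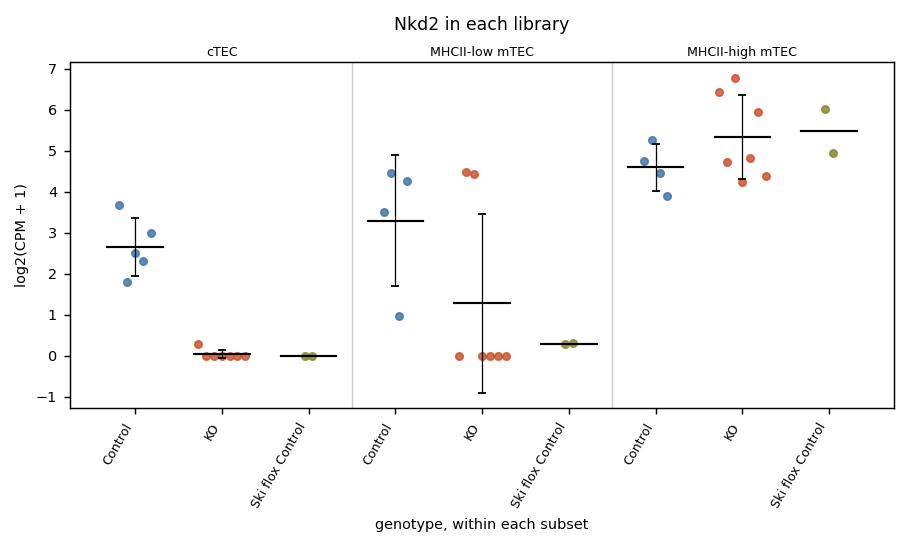
Nkd2 in each of the 40 libraries, as log2(CPM + 1) on the vertical axis, by genotype within each subset; points are libraries, lines are means and bars are SD where a group has more than 2 libraries. All 7 KO libraries of cTEC lie at or next to 0, all 7 KO libraries of MHCII-high mTEC lie between 17.8 and 108 CPM, and MHCII-low mTEC of KO is split.

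Among the ligands, Wnt10b (ENSMUSG00000022996, chromosome 15), an activator of the canonical pathway in epithelia, had no count in any of the 7 cTEC libraries of KO. In MHCII-high mTEC of KO it stood at 6.5, 0, 0, 19.5, 16.3, 18.1 and 7.96 CPM, and in MHCII-low mTEC at 10.6 and 18.6 CPM in replicates 3 and 4 and 0 in the other 5. Both mTEC groups overlap cTEC at 0. With cTEC placed at 3 counts over the group, Wnt10b was at least 112-fold higher in MHCII-high (edgeR adjusted p = 0.0137) and at least 48.0-fold higher in MHCII-low mTEC (adjusted p = 0.0364). The first call held when any 1 library was left out. The second was lost with limma voom (adjusted p = 0.345) and in 9 of 14 cases with 1 library left out (adjusted p 0.0271 to 0.0631), without any 1 of the 7 cTEC libraries or MHCII-low replicates 3 or 4. In Control, Wnt10b stood at 26.0, 3.12, 28.8 and 11.3 CPM in MHCII-high mTEC and at 0, 0, 0, 6.26 and 4.96 in cTEC, which overlap (edgeR adjusted p = 0.486).

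Wnt2, a canonical ligand best known from lung and mesenchyme, had no count in cTEC of KO and stood at 4.34, 16.3, 0, 0, 0, 15.5 and 1.75 CPM in MHCII-high mTEC, at least 62.3-fold higher (edgeR adjusted p = 0.0283). Its call held without any 1 library. In fits of only the groups compared, Wnt10b and Wnt2 fell under the count filter, so neither was tested there. Wnt1, the founding member of the family and a ligand of the developing brain, stood at 42.1, 0.882 and 24.5 CPM in replicates 4, 5 and 6 of MHCII-high mTEC of KO and at 0 in the other 4. In cTEC of KO it had 2 counts in all, in replicate 5, a ratio of 199 with a counting interval of 54.8 to 1652 (edgeR adjusted p = 0.0306). The Wnt1 call was lost in 6 of 14 cases, without cTEC replicate 1, 3, 4, 6 or 7 or MHCII-high replicate 4, with adjusted p-values over all 14 from 0.0250 to 0.0617.

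Wnt5a, a ligand of the non-canonical branch, had no count in cTEC of KO and 3.63, 2.87 and 1.75 CPM in replicates 4, 5 and 7 of MHCII-high mTEC, at least 13.5-fold higher as a group (edgeR adjusted p = 0.0483). That call was lost in 11 of 14 cases (adjusted p 0.0465 to 0.0748), without any 1 cTEC library or MHCII-high replicate 1, 4, 5 or 7. Rspo3, an R-spondin that keeps Frizzled receptors at the surface, rested on 1 library: MHCII-high KO replicate 7 held 16.9 CPM, and the other 6 and all 7 cTEC libraries of KO held 0. It was at least 27.8-fold higher as a group (edgeR adjusted p = 0.0413), and the call was lost without any 1 of the 7 cTEC libraries, with adjusted p-values from 0.0391 to 0.0655. Without MHCII-high replicate 7 the gene fell under the count filter.

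Sfrp2, a secreted WNT-binding protein of mesenchyme, was the member that was lower in MHCII-high mTEC than in cTEC of KO (edgeR adjusted p = 0.0238). In cTEC of KO it stood at 153 CPM in replicate 1, at 4.94 in replicate 5 and at 0 in the other 5, and it had no count in MHCII-high mTEC of KO, so cTEC was at least 243-fold higher as a group. Replicate 1 alone held 93.5% of the summed Sfrp2 CPM of all 40 libraries, and it is the library with 6430 CPM of fibroblast markers. Without it the log2 fold change went from -9.79 to -5.03 and the adjusted p to 0.0759. Of the fibroblast markers, 3 of 10 were lower in MHCII-high mTEC than in cTEC of KO by the same test. The part of fibroblast RNA in the Sfrp2 value was not tested. Neither Sfrp2 nor Wnt1, Wnt5a or Rspo3 was called with limma voom, and all 4 fell under the count filter in the fit of only the groups compared. Wnt5a and Rspo3 also lost their calls with no count filter and with the set of library numbers as a term. DESeq2 did not call Wnt1, Wnt5a or Rspo3. Wnt1, Rspo3 and Sfrp2 fell under the filter, and were not tested, with both control genotypes pooled.

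**Figure D3:**
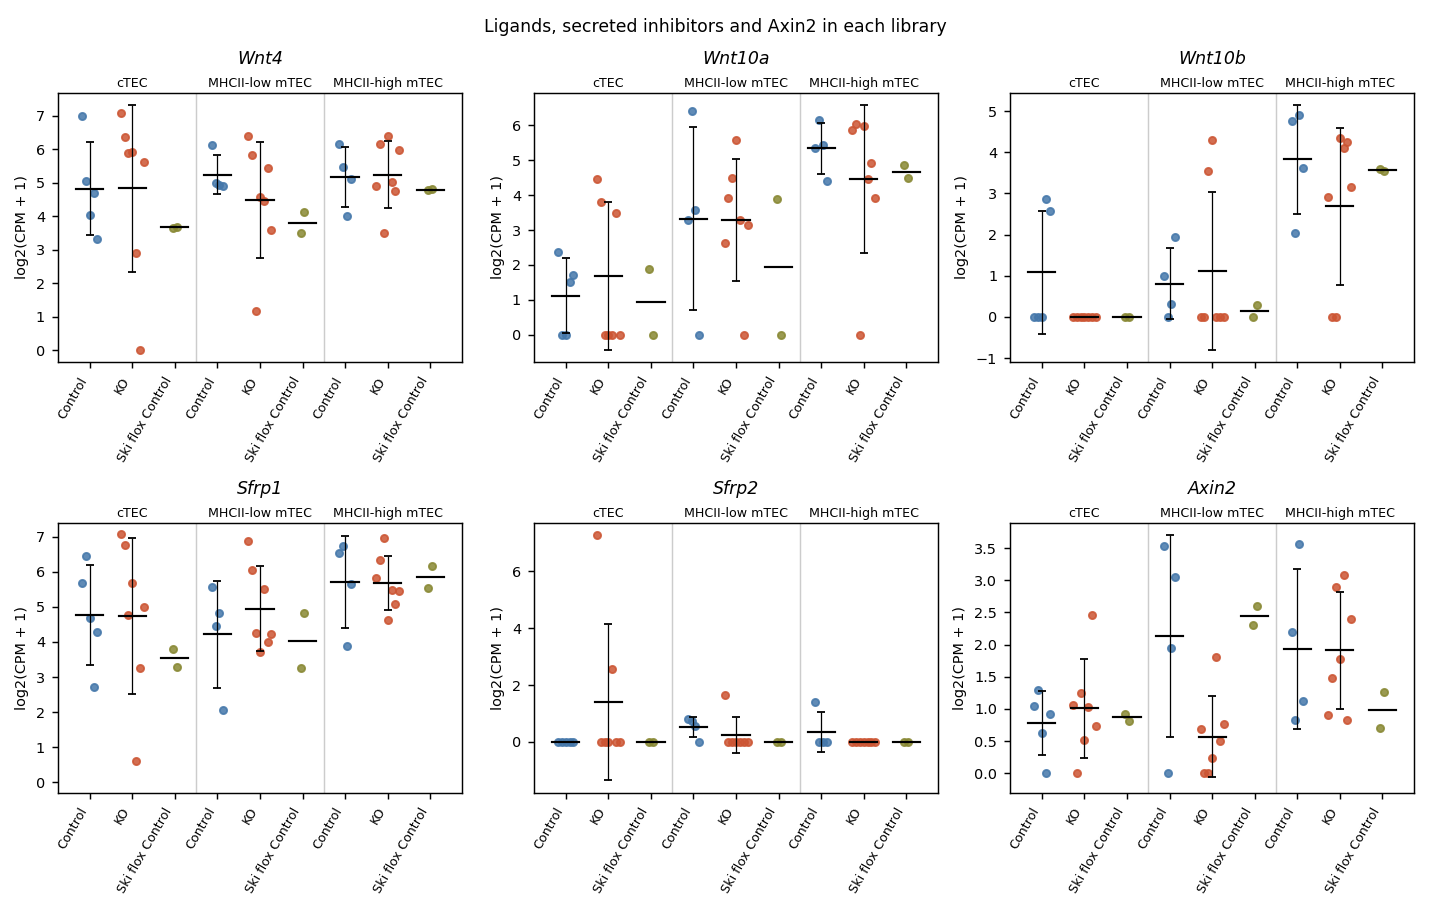
Wnt4, Wnt10a, Wnt10b, Sfrp1, Sfrp2 and Axin2 in each of the 40 libraries, as log2(CPM + 1) on the vertical axes, by genotype within each subset; points are libraries, lines are means and bars are SD where a group has more than 2 libraries. Wnt4 and Sfrp1 overlap across all subsets, Wnt10a and Wnt10b are higher in most MHCII-high libraries, and the Sfrp2 level of cTEC KO comes from 1 library at 153 CPM.

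The abundant ligands and inhibitors did not pass edgeR's test between subsets. Wnt4 ran from 9.03 to 127 CPM in cTEC, 29.2 to 68.5 in MHCII-low and 15.2 to 70.4 in MHCII-high mTEC of Control. Its log2 fold change over cTEC was -0.08 (SE 0.94) in MHCII-low and -0.04 (SE 0.94) in MHCII-high mTEC (edgeR adjusted p = 1 for both), and the subsets overlap. Sfrp1, which binds WNT proteins, ran from 5.56 to 86.2 CPM in cTEC and 13.7 to 106 in MHCII-high mTEC of Control (log2 fold change 0.82, SE 0.88, edgeR adjusted p = 0.718). Wnt11, a ligand of the non-canonical branch, ran from 0 to 41.5 CPM in cTEC and from 12.5 to 66.3 in MHCII-high mTEC (1.55, SE 1.81, edgeR adjusted p = 0.756). Sfrp5 was counted in 2 of 5 cTEC libraries of Control, up to 63.4 CPM, and in all 4 of MHCII-high mTEC, at 12.1 to 24.1 CPM (0.65, SE 2.13, edgeR adjusted p = 0.963). With limma voom Sfrp5 was called higher in MHCII-high mTEC (5.42, adjusted p = 0.0375).

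Wnt10a, a ligand of skin and its appendages, missed the threshold in Control although its libraries did not overlap. It stood at 4.22, 0, 0, 1.85 and 2.30 CPM in cTEC and at 39.7, 70.2, 42.5 and 20.1 CPM in MHCII-high mTEC. How many of all genes separate these libraries was not computed. In this comparison 21.2% of all genes had an unadjusted edgeR p under 0.05. The log2 fold change was 4.67 (SE 1.89, edgeR adjusted p = 0.158). With limma voom it was 5.88 (adjusted p = 0.0259), and with Control and Ski flox Control pooled it was 4.53 (adjusted p = 0.0494). In KO, cTEC ran from 0 to 21.1 CPM and MHCII-high mTEC from 0 to 63.9, so the groups overlap (2.48, SE 1.42, edgeR adjusted p = 0.236).

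Of the receptors, Fzd6 and Fzd7 had higher means in mTEC of Control without passing. Fzd6, a receptor with a role in planar polarity, averaged 9.10 ± 14.9 CPM (SD, n = 5) in cTEC and 30.5 ± 16.8 (n = 4) in MHCII-high mTEC of Control (log2 fold change 1.74, SE 1.46, edgeR adjusted p = 0.59). Fzd7 averaged 2.12 ± 2.01 and 14.9 ± 9.26 CPM in cTEC and MHCII-low mTEC of Control (2.80, SE 1.83, edgeR adjusted p = 0.474). The MHCII-low libraries, at 6.0 to 27.6 CPM, all lay above the cTEC libraries, at 0 to 4.43 CPM. The share of all genes that separate these groups was not computed. In KO, edgeR gave 2.65 (SE 1.23, adjusted p = 0.128) for Fzd6 in MHCII-high and 3.51 (SE 1.56, adjusted p = 0.139) for Fzd7 in MHCII-low mTEC over cTEC. With limma voom both were called higher there, at 4.01 (adjusted p = 0.0171) and 4.23 (adjusted p = 0.0399). Lrp6, the co-receptor counted in every library, averaged 33.6 ± 16.1, 52.3 ± 19.9 and 51.8 ± 18.6 CPM in cTEC, MHCII-low and MHCII-high mTEC of Control. Its log2 fold changes over cTEC, 0.64 and 0.62 (SE 0.65 for both), had adjusted p-values of 0.74 and 0.708.

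Kremen2 averaged 4.61 ± 4.37 CPM (SD, n = 5) in cTEC and 11.3 ± 11.7 (n = 4) in MHCII-high mTEC of Control (log2 fold change 1.29, SE 1.87, edgeR adjusted p = 0.833). Lgr4, an R-spondin receptor, averaged 7.27 ± 6.23 and 23.2 ± 9.17 CPM in cTEC and MHCII-low mTEC (1.67, SE 1.52, edgeR adjusted p = 0.681). Rnf43 averaged 6.91 ± 9.92 and 23.3 ± 15.2 CPM in cTEC and MHCII-high mTEC (1.75, SE 1.5, edgeR adjusted p = 0.602). Rspo1 was counted in 8 of the 40 libraries, with 2 of 5 cTEC libraries of Control and 0 of 7 in cTEC of KO. Axin1 averaged 70.6 ± 35.2 CPM in cTEC and 27.4 ± 14.4 in MHCII-high mTEC of Control (-1.37, SE 0.88, edgeR adjusted p = 0.41).

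Axin2, the usual reporter of canonical signalling, was counted in 35 of 40 libraries but never passed 10.9 CPM. In Control it stood at 1.06, 1.46, 0.551, 0 and 0.885 CPM in cTEC, at 10.6, 0, 2.87 and 7.31 in MHCII-low and at 3.56, 0.780, 10.9 and 1.17 in MHCII-high mTEC. Its higher values lie in mTEC, but the groups overlap. The log2 fold changes over cTEC were 2.67 (SE 1.39, edgeR adjusted p = 0.311) and 2.33 (SE 1.37, adjusted p = 0.349). Nkd1, the relative of Nkd2, was counted in 18 libraries. It ran from 0 to 27.2 CPM in cTEC and from 0 to 14.2 in MHCII-high mTEC of Control (-1.36, SE 2.44, edgeR adjusted p = 0.881).

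**Figure D4:**
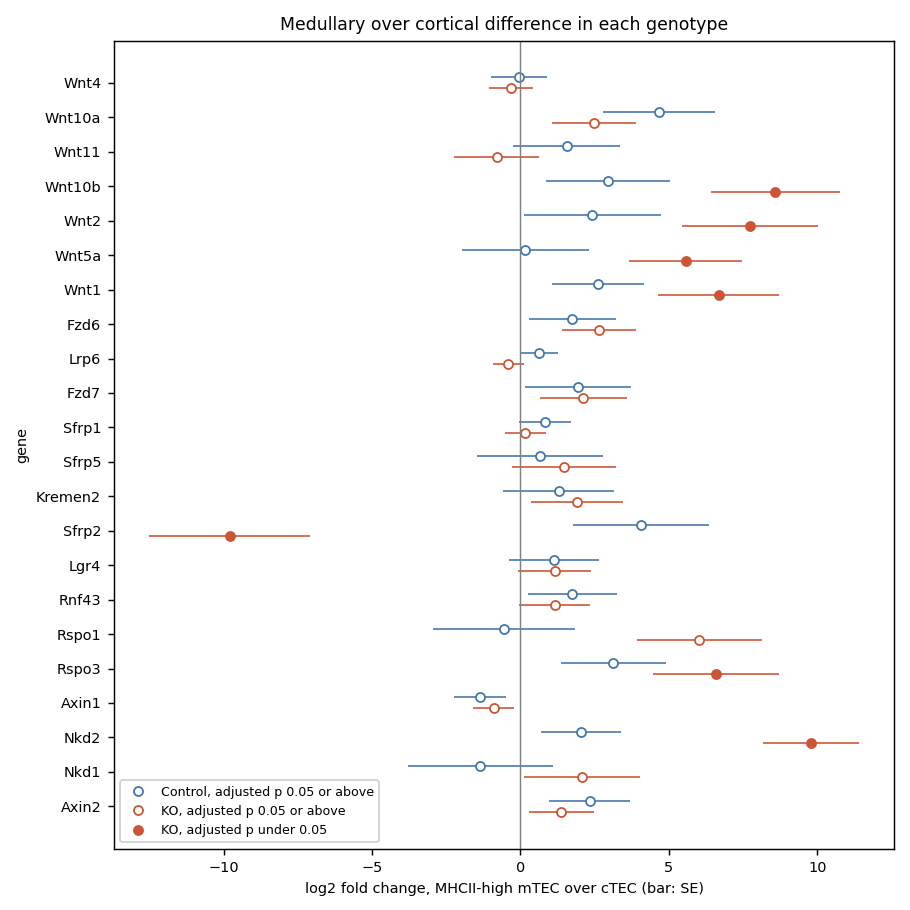
Log2 fold change of MHCII-high mTEC over cTEC with its SE (horizontal axis, edgeR) for the named genes (rows), in Control and in KO; filled points passed an adjusted p of 0.05. The filled points are 7 genes in KO, with Nkd2 at 9.79 and Sfrp2 at -9.79, and no gene in Control; fitted values of genes with no count in 1 group depend on the prior count.

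Between the mTEC subsets no member was called. In Control 0 of 50 were (2 unadjusted), against 0% of all genes, and in KO 0 (10 unadjusted), against 0.00868% higher and 0.00868% lower. An unadjusted p under 0.05 was found for 7.47% of all genes in Control and for 17.5% in KO. With limma voom Nkd2 was called higher in MHCII-high than in MHCII-low mTEC of KO (log2 fold change 6.31, adjusted p = 3.64e-05).

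Whether the KO differed from Control was asked within each subset. No member was called by edgeR in cTEC, MHCII-low or MHCII-high mTEC, nor was any other gene, with 0% of 23040 called in each. At an unadjusted p under 0.05 there were 11, 3 and 3 of the 50 members, against 10.6%, 7.11% and 6.88% of all genes. DESeq2 called 6 members in cTEC (4 higher, 2 lower), against 2.26% of all genes, and limma voom called 1, Nkd2, against 0.0434%. DESeq2 called 1 member in MHCII-low mTEC and 0 in MHCII-high mTEC, and limma voom 0 in both. The shares of all genes called by these tools in mTEC are not given here. The 1 call was Rspo4, with 268 and 109 counts in KO replicates 3 and 4 and no count in Control. Besides Nkd2, the 6 DESeq2 calls in cTEC are genes with no count in 1 of the groups. Dkk1, Sfrp2, Sfrp4 and Wnt1 had none in Control, and Fzd4 had none in KO. Their log2 fold changes ran from 16.4 to 23.9 in size. Wnt1 held 2 counts in KO, and KO replicate 2 held 86 counts of Dkk1. In KO replicate 1, the library high in fibroblast markers, Sfrp2 had 703 and Sfrp4 had 103 counts. These calls are thus not read as an excess over all genes.

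Nkd2 had the smallest p of the members in cTEC. All 7 KO libraries lay below every Control library, with 1 count in KO and 174 in Control, a ratio of 202 with a counting interval of 35.8 to 8021. The log2 fold change was -6.75 (SE 1.48, edgeR adjusted p = 0.235 over all genes), against -5.37 (adjusted p = 0.0333) with limma voom and -7.61 (adjusted p = 5.68e-06) with DESeq2. As a single value, the mean of log2(CPM + 1) in KO minus that in Control was -2.61 (two-sided exact permutation p = 0.00253, the smallest this design allows, 0.00758 adjusted over the 3 subsets). Nkd2 had been singled out with earlier results of these data known, and this p does not account for that choice. Within the libraries of the first and the last library numbers the differences were -2.59 (exact permutation p = 0.0571) and -2.64 (exact permutation p = 0.2), each the smallest p allowed there. In MHCII-low mTEC the difference was -2.02 (exact permutation p = 0.176) and in MHCII-high mTEC 0.74 (exact permutation p = 0.248).

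The Ski flox Control libraries of cTEC also had no Nkd2 count, in either of 2 libraries. Of the 55 members, 40 had no count in these libraries, so the lack of Nkd2 is not particular to it. For Nkd2, the Ski flox Control libraries stood at 0.218 and 0.230 CPM in MHCII-low mTEC and at 63.9 and 30.0 CPM in MHCII-high mTEC. In each subset they lay within the range of KO. Ski flox Control over Control in cTEC gave an edgeR adjusted p of 0.856. With limma voom Nkd2 was called lower there (-5.83, adjusted p = 0.0364). All Ski flox Control libraries have late library numbers. Control replicates 4 and 5 of cTEC share that range and stood at 3.94 and 6.91 CPM. With the set of library numbers as a term in edgeR the log2 fold change was -7.11 and the adjusted p 0.987.

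Other members differed between KO and Control without passing. Wnt5b, a non-canonical ligand, stood at 8.62, 10.7, 48.6, 0 and 4.25 CPM in cTEC of Control and had no count in any of the 7 KO or 2 Ski flox Control libraries. Control was at least 166-fold higher than KO as a group (edgeR adjusted p = 0.318), with 1 Control library at 0. Wnt5b was picked out after its values were seen, and it is 1 of 40 members with no count in cTEC of Ski flox Control. Of the 55 members, 15 had no count in any cTEC library of KO, among them Wnt2, Wnt5a, Wnt5b, Wnt10b and Rspo1, which were counted in cTEC of Control. In cTEC of Control 15 members had no count too, and 8 of them are the same genes. Each group thus lacked 7 members that the other held, and in Control these included Dkk1, Sfrp2, Sfrp4, Wnt1, Wnt7a and Wnt7b. The share of all genes absent in this way was not computed, so these counts are not a result about the members. The groups also differ in size, 5 Control and 7 KO libraries, and in genes counted per library, with medians of 16263 and 13620.

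Axin2 in MHCII-low mTEC stood at 10.6, 0, 2.87 and 7.31 CPM in Control and at 0.616, 0, 0, 0.174, 2.52, 0.418 and 0.697 CPM in KO. The KO libraries lie below 3 of the 4 Control libraries (log2 fold change -2.98, SE 1.24, edgeR adjusted p = 0.648). The 2 Ski flox Control libraries stood at 3.92 and 5.06 CPM, above every KO library. In cTEC and MHCII-high mTEC the log2 fold changes of Axin2 were 0.70 (SE 1.19) and -0.25 (SE 1.25), both with an adjusted p of 1. Wnt4, Wnt10a, Wnt11, Fzd6, Fzd7, Lrp6, Sfrp1, Sfrp5, Kremen2, Lgr4, Rnf43 and Axin1 had adjusted p-values of 0.846 or higher for KO over Control in all 3 subsets.

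The difference of the KO effect between subsets was tested as an interaction. For Nkd2 it was 7.76 on the log2 scale (edgeR adjusted p = 0.455) between MHCII-high mTEC and cTEC and 5.69 (adjusted p = 0.453) between MHCII-low mTEC and cTEC. No member was called in any of the 3 interactions (8, 10 and 2 unadjusted), in the 3 comparisons of KO with Ski flox Control (3, 4 and 1 unadjusted) or in the 3 of Ski flox Control with Control (8, 2 and 0 unadjusted). Of all genes, 7.38%, 7.26% and 6.17% were under the unadjusted threshold in the interactions, in the same order. For KO with Ski flox Control these shares were 4.93%, 6.12% and 3.15%. For Ski flox Control with Control they were 4.73%, 5.53% and 1.89%. With a fit of only the groups compared, the Nkd2 interaction of MHCII-high mTEC was called (7.78, edgeR adjusted p = 0.0272).

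Beyond the 55 genes, most of the pathway's machinery did not pass between subsets. In the TCF/LEF list, 1 of 13 measured genes was higher over cTEC in each mTEC subset of Control and of KO: Tcf7l1, a TCF factor that mainly represses targets. Of all genes, 0.703% and 1.07% were higher in MHCII-low and MHCII-high mTEC of Control, and 5.19% and 12.9% in KO. In Control, Tcf7l1 averaged 13.2 ± 5.74 CPM (SD, n = 5) in cTEC, 56.1 ± 24.9 (n = 4) in MHCII-low and 75.2 ± 32.2 (n = 4) in MHCII-high mTEC. The cTEC libraries, at 4.24 to 18.7 CPM, did not overlap either mTEC subset. For this too, the share of all genes that separate these groups was not computed. The log2 fold changes were 2.09 (SE 0.52, edgeR adjusted p = 0.0451) and 2.51 (SE 0.52, adjusted p = 0.0117) in Control and 1.89 (SE 0.42, adjusted p = 0.00863) and 1.94 (SE 0.42, adjusted p = 0.00437) in KO. Tcf7, the TCF factor of T cells, was lower in MHCII-high mTEC than in cTEC of KO (-1.71, SE 0.50, edgeR adjusted p = 0.0255), as were 1.82% of all genes. Thymocyte markers there summed to a median of 533 CPM against 1665 in cTEC, and their part in the Tcf7 value was not tested.

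In the list of other beta-catenin targets, 1 of 10 measured genes was higher in mTEC in each of the 4 comparisons with cTEC: Sox9, a transcription factor of epithelial progenitors, against the same 0.703%, 1.07%, 5.19% and 12.9% of all genes. Sox9 averaged 16 ± 16 CPM (SD, n = 5) in cTEC, 164 ± 75.2 (n = 4) in MHCII-low and 124 ± 53.0 (n = 4) in MHCII-high mTEC of Control. The log2 fold changes in Control were 3.36 (SE 0.73, edgeR adjusted p = 0.0210) and 2.96 (SE 0.72, adjusted p = 0.0356), and in KO 2.92 (SE 0.59, adjusted p = 0.00477) and 2.05 (SE 0.58, adjusted p = 0.0204). The list's median did not move with Sox9: it was -0.84 and -0.96 in Control, against 0.14 and 0.25 for all genes. Tcf7, on this list too, was the 1 gene lower there, in MHCII-high mTEC over cTEC of KO. Among other extracellular modulators, 1 of 8 measured was higher in MHCII-high mTEC than in cTEC of KO, against 12.9% of all genes. It was the WNT-binding protein gene Frzb (edgeR adjusted p = 0.0278), which ran from 0 to 102 CPM with a median of 0 in MHCII-high mTEC and had no count in cTEC.

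The lists for WNT secretion (2 measured), the cytoplasmic beta-catenin pathway (13 measured) and non-canonical signalling (13 measured) had 0 calls in all 18 comparisons. Wls, which carries WNT proteins to the surface, averaged 127 ± 97.2 CPM (SD, n = 5) in cTEC and 98.1 ± 54.0 (n = 4) in MHCII-high mTEC of Control. Ctnnb1, the beta-catenin gene, averaged 150 ± 79.2 and 152 ± 70.7 CPM there. Gsk3b, a kinase of the complex that degrades beta-catenin, averaged 51.0 ± 15.4 and 53.1 ± 21.8 CPM. Porcn, which adds the lipid that WNT proteins need, averaged 2.11 ± 3.82 CPM in cTEC and had no count in MHCII-high mTEC of Control. In the non-canonical list the WNT receptor gene Ryk averaged 19.0 ± 15.7 CPM (SD, n = 5) in cTEC and 47.5 ± 25.9 (n = 4) in MHCII-high mTEC, and the planar polarity gene Vangl2 8.73 ± 9.33 and 11.9 ± 6.18 CPM. None of the 6 lists had a call for KO over Control in any subset.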

How the data were processed

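SMART-seq libraries of 200 sorted cells each were analysed from 1 table of read counts per gene, deposited by the authors. The submitters' processing notes name FastQC 0.11.3, Picard 1.134, SAMtools 1.2, HTSeq 0.4.1 and GRCm38. Aligner, annotation and strand setting: not given in the sources used here; hence reads from antisense partners cannot be told apart. Symbols came from GENCODE M21, which matched 53360 identifiers and left 105 without one. The 2 Control libraries under 100000 counts were dropped, leaving 40 of 42.

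Counts were fitted with edgeR 4.0.16 (R 4.3.3), with TMM scaling and 1 quasi-likelihood model of 40 libraries. Genes were filtered by filterByExpr over 9 groups (minimum count 10, smallest group 2 libraries). P-values were adjusted by Benjamini-Hochberg over the 23040 genes tested, at a threshold of 0.05. Nkd2 was also tested by exact permutation on log2(CPM + 1). Ratios of group counts have 95% Poisson-based intervals, and a group at 0 was placed at 3 counts. There are no molecular identifiers, so these cover counting error only. Alternatives used DESeq2 1.42.0, limma voom 3.58.1, RLE scaling, no filter, other sample sets and each library left out. The fitting was also run on simulated data, with changes planted only in genes that averaged over 10 counts per library. That run does not bear on calls of sparser genes such as Rspo3. Named genes were members called in a comparison, the 3 highest per kb in Control in each role, and Axin2, Nkd1 and Nkd2, and in each wider list up to 4 called genes or else the 2 most abundant. Members and lists were chosen with earlier results of these data known.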

Additional observations from a re-analysis of the deposited data

Results flagged for a closer look

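In 15 of 46 groups tested, 1 library stood far from the others of its group. Most are groups in which the gene was counted in a single library. That library then stands apart at any level, so the number of groups flagged cannot be set against a chance rate. Sfrp2 stood at 153 CPM in cTEC KO replicate 1, at 2.16 CPM in MHCII-low mTEC KO replicate 1 and at 1.64 CPM in MHCII-high mTEC Control replicate 1. Rspo3 stood at 16.9 CPM in MHCII-high mTEC KO replicate 7, at 1.25 CPM in MHCII-low mTEC KO replicate 3 and at 0.261 CPM in MHCII-low mTEC Control replicate 5. Nkd1 reached 11.3 CPM in cTEC KO replicate 1 and 10.6 CPM in MHCII-low mTEC KO replicate 7. Nkd2 stood at 0.218 CPM in cTEC KO replicate 1, which is 1 count.

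Wnt1 stood at 0.520 CPM in cTEC KO replicate 5 and 0.548 CPM in MHCII-high mTEC Control replicate 1. Wnt2 stood at 5.71 CPM in MHCII-low mTEC KO replicate 5 and 3.35 CPM in MHCII-low mTEC Control replicate 4. Wnt5a stood at 2.48 CPM in cTEC Control replicate 5, and Axin2 at 2.52 CPM in MHCII-low mTEC KO replicate 5.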

How the results depend on the processing

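The count of called members moved with the tool. For MHCII-low mTEC over cTEC in Control it was 0 with edgeR, 3 with DESeq2 and 1 with limma voom. For MHCII-high mTEC over cTEC in Control it was 0, then 5 with DESeq2, 5 with limma voom and 3 with both control genotypes pooled. In KO, MHCII-low mTEC over cTEC gave 2, then 4 with DESeq2, 1 with limma voom, 0 with only the groups compared, and 1 to 2 with each library left out. The count was 1 without cTEC KO replicate 2, 5, 6 or 7 or MHCII-low mTEC KO replicate 3 or 4. MHCII-high mTEC over cTEC in KO gave 7, then 4 with limma voom, 1 with only the groups compared, and 4 to 7 with each library left out, with 4 without cTEC KO replicate 6 or 7. Between mTEC subsets in KO DESeq2 called 2 and limma voom 1. For KO over Control DESeq2 called 6 members of cTEC with 1 in MHCII-low mTEC, while limma voom called 1 of cTEC. DESeq2 called 15 for KO over Ski flox Control, 10 for Ski flox Control over Control and 6 for the KO effect between subsets, where edgeR called 0. The 15 include Nkd2 in cTEC, whose groups hold 1 and 0 counts. For settings other than the main edgeR fit, the share of all genes called is given only for KO over Control in cTEC. The other counts of members in this paragraph thus have no background beside them. Limma voom called 1 for Ski flox Control over Control, and only the groups compared gave 1 for the KO effect between subsets. In the fits of only the groups compared in KO, both members called in MHCII-low mTEC and 6 of the 7 in MHCII-high mTEC fell under the count filter and were not tested. For the other changes the cause was not tested.

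Directions reversed for values that passed no test. Wnt10b in MHCII-low mTEC over cTEC of Control was 0.34 with limma voom. With each library left out, Wnt2 in MHCII-low mTEC over cTEC of Control ran from -5.56 to 0.46, and Wnt5a in MHCII-high mTEC over cTEC of Control from -2.16 to 4.56. The Nkd2 difference in cTEC was -2.59 and -2.64 within the first and last library numbers, where the exact permutation test cannot pass. A tally over all settings covered only the members that edgeR called, in comparisons with cTEC and of KO over Control in cTEC. It also held further comparisons of Nkd2. In it 47 fold changes lost a call, 10 gained one and 8 reversed, and the others kept their side and direction. The other named genes were not in this tally. No paired analysis was possible because the labels give no replicate numbers and no animal. Low counts from 200 cells limit most members.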
